A study of Homo sapiens with 9 samples.

Results

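The proteasome genes examined here were all probes whose platform gene symbol begins with PSMA, PSMB, PSMC, PSMD, PSME, PSMF or PSMG followed by a digit, with those of ADRM1 and POMP added. The rule gave 81 of the 47323 probes on the array, which stand for 50 genes. Of these probes 70 were above background on at least 3 of the 9 arrays, and 46 of the 50 genes could be tested among 11428 genes in all. The rule uses names only, so it also takes in 4 genes that are not proteasome subunits or assembly factors: PSMC3IP and PSME3IP1, named for proteins that bind a proteasome protein, and the antisense transcripts PSMG3-AS1 and PSMD6-AS2. Of the 46 tested genes 43 were proteasome genes proper. PSMA7, PSMC5, PSMD7 and PSMD13 have no probe in the annotation used and were not analysed here.

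The cells were PC3, an established prostate cancer line, transfected with 50 nM siRNA and collected 48 h later, with 3 arrays in each of 3 groups. The control group received the AllStars negative control siRNA. The other groups received a pool of 4 siRNAs against MELK, a protein kinase of dividing cells, or a pool of 4 against UBE2C, the ubiquitin-conjugating enzyme that serves the anaphase-promoting complex. Both pools came from a different maker than the control siRNA, and both comparisons with control use the same 3 control arrays. A shift that both knockdowns show against control therefore cannot be told apart from a difference in siRNA type. Nothing in the labels states that the arrays of a group were separate cultures, so the spread behind the p-values is that of these arrays and could be technical.

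The proteasome is the protease that degrades proteins marked with ubiquitin. Its 20S core is a stack of rings: outer alpha rings, whose subunits form the gate, and inner beta rings, which hold the 3 proteolytic sites of PSMB5, PSMB6 and PSMB7. The 19S regulatory particle caps the core. Its base holds the PSMC ATPases, which unfold the substrate, and its lid holds PSMD14, the deubiquitinase that strips ubiquitin from it. UBE2C works upstream of this machine, since the cyclins and other mitotic proteins that the anaphase-promoting complex marks are degraded there. In many cell types proteasome genes are known to be raised together by NFE2L1, a transcription factor that acts through antioxidant response elements when proteasome activity is low.

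The targeted transcripts were lowered as labelled: the normalised log2 signal of MELK was 10.51, 10.37 and 10.49 in the controls and 9.44, 9.36 and 9.32 with MELK siRNA, and that of UBE2C was 12.96, 12.88 and 12.85 in the controls and 11.54, 11.52 and 11.66 with UBE2C siRNA. The array of UBE2C siRNA replicate 1 stood apart from the rest. Its values correlated with those of the other arrays at 0.876 to 0.896 across the tested genes, whereas the other 8 arrays correlated with each other at 0.984 to 0.992. The fit reported here therefore used 8 arrays, with all 3 groups sharing one estimate of the spread. Every fold change and test below is from these 8 arrays unless 9 are named. Normalisation and the detection filter took in all 9 arrays, so UBE2C siRNA replicate 1 still bears on the 8-array values. Values with all 9 arrays are given where that array turned the sign of a UBE2C siRNA value of a named proteasome gene or clearly moved its size. Between 16559 and 18661 probes were above background on an array. All 5 epithelial marker genes fixed for PC3 cells (KRT8, KRT18, KRT19, EPCAM and CDH1) were detected, whereas KLK2 and KLK3, the androgen-regulated genes of luminal prostate cells, were not detected on any array, while TMPRSS2 of the same list was detected on all 9, at a log2 signal of 6.42 to 7.82. The summed signal over background of the blood, endothelial, fibroblast and muscle marker lists reached at most 134 on any array, against at least 9422 for the epithelial list.

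With MELK siRNA, 4 of the 46 tested proteasome genes passed the test. PSMA2 of the alpha ring, PSMD6 of the lid and PSMD10, a chaperone that helps to build the base, rose, and PSMD1, the scaffold subunit of the base, fell. With UBE2C siRNA, 2 genes passed, both higher than control: PSMD14, the lid deubiquitinase, and PSMA2. These changes were small, between 1.21-fold and 1.35-fold for the increases, and PSMD1 was left at 0.765 times its control level. The test was limma with Benjamini-Hochberg adjustment over all 11428 genes and a threshold of 0.05. It called 5.51% of all genes for MELK siRNA, 2.29% as higher and 3.22% as lower, so that 4 of 46 (8.70%) is not far from the share of all genes. For UBE2C siRNA it called 4.46% of all genes, 1.68% as higher and 2.78% as lower, against 4.35% of the proteasome genes. Since the arrays measured RNA pooled from many cells, a change in every cell and a change in some of the cells cannot be told apart. In both fits that used all 9 arrays no proteasome gene passed in any comparison, where the fit with an untrended prior called 0% of all genes with MELK siRNA and 0.00875% with UBE2C siRNA. At an unadjusted p under 0.05 that 9-array fit had 1 proteasome gene with MELK siRNA, against 5.39% of all genes, and 5 with UBE2C siRNA, against 11.1%.

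Most of the proteasome genes differed little from control in either direction. With MELK siRNA 34 of the 46 had a positive log2 fold change, against 50.6% of all genes, and their median was 0.08, against 0.004 for all genes. With UBE2C siRNA 28 of the 46 were positive, against 47.0% of all genes, and the median was 0.06, against -0.02 for all genes. At an unadjusted p under 0.05, 13 of the 46 differed from control with MELK siRNA, where 22.1% of all genes did, and 12 differed with UBE2C siRNA, where 22.7% did. For MELK siRNA the arrays did not overlap those of the controls for 11 genes that were higher and 1 that was lower, against 13.8% and 11.9% of all genes. For UBE2C siRNA, with 2 arrays against 3, the numbers were 13 higher and 3 lower, against 17.3% and 21.6% of all genes. Both directions together were 25.7% and 38.9% of all genes. The counts of genes that passed rest on single arrays. Without control replicate 3 the count was 3 for MELK siRNA and 3 for UBE2C siRNA. Without MELK siRNA replicate 1 the count for UBE2C siRNA was also 3, so leaving out an array could raise that count. The count for MELK siRNA was 2 without control replicate 1 or 2, 1 without MELK siRNA replicate 1 or without UBE2C siRNA replicate 2 or 3, and 0 without MELK siRNA replicate 2 or 3. The count for UBE2C siRNA was 1 without control replicate 1 or 2 or MELK siRNA replicate 2 or 3, and 0 without UBE2C siRNA replicate 2 or 3.

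**Figure D1:**
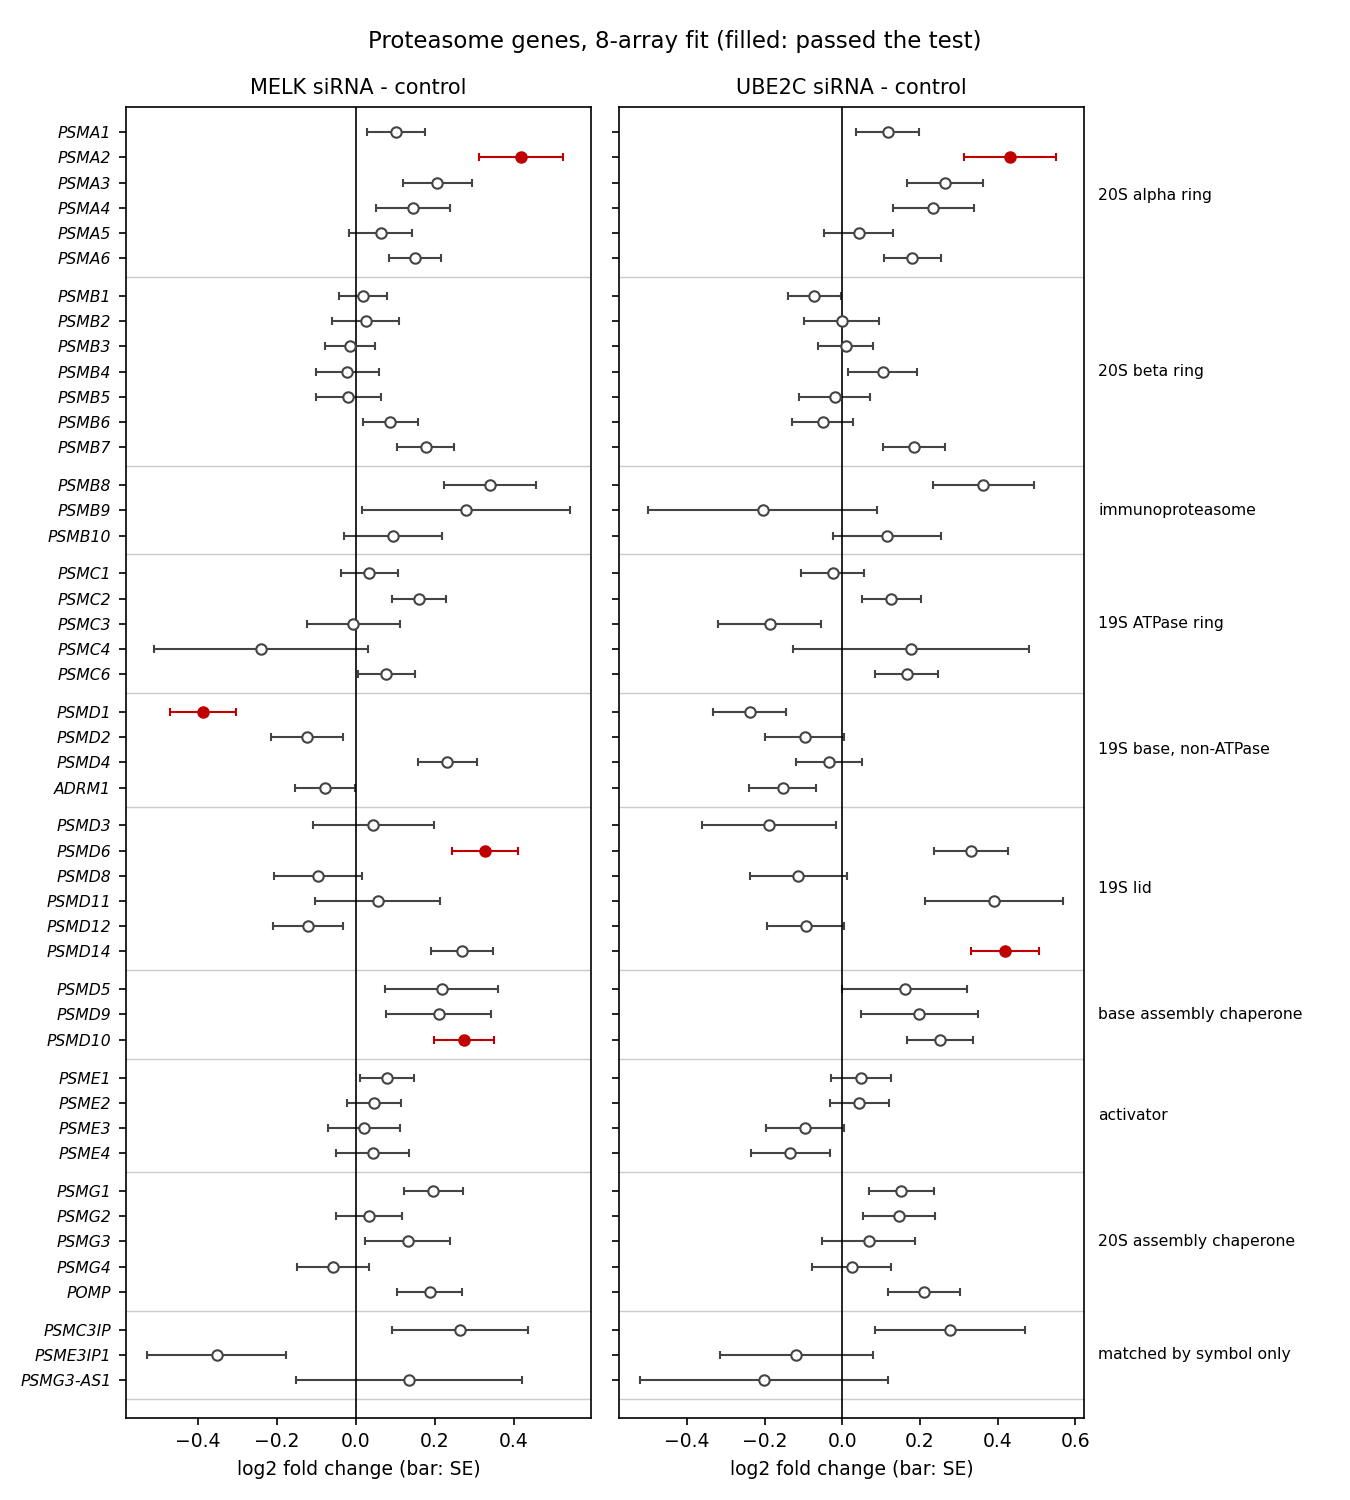
Log2 fold change of each of the 46 tested proteasome genes with MELK siRNA (left) and UBE2C siRNA (right) against control in the 8-array fit, in the order of their place in the complex. Bars are standard errors and filled red points passed the test; the 6 alpha ring genes lie right of 0 in both panels, and the 7 beta ring genes lie between -0.07 and 0.18.

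In the alpha ring all 6 measured genes were above control in the mean with either siRNA, and PSMA2 was the one that passed. The log2 signal of PSMA2 was 8.68, 8.69 and 8.54 in the controls, 9.11, 9.04 and 9.01 with MELK siRNA, and 9.86, 8.97 and 9.16 with UBE2C siRNA replicates 1 to 3. Every knockdown array was above every control array, and the value of UBE2C siRNA replicate 1 lay far above the rest. The log2 fold change was 0.42 (SE 0.106, adjusted p = 0.0313) with MELK siRNA and 0.43 (SE 0.118, adjusted p = 0.0470) with UBE2C siRNA, as fitted by limma on 8 arrays. With all 9 arrays the change with UBE2C siRNA was 0.70, a value that 1 array decides. A two-sided exact permutation test on all 9 arrays gave p = 0.1 for PSMA2 in each comparison with control, the smallest that 3 against 3 arrays can give. The call of PSMA2 with MELK siRNA was kept without control replicate 1 (adjusted p = 0.0497) and lost without any of the other 7 arrays (adjusted p from 0.0504 to 0.116). The call with UBE2C siRNA was kept without MELK siRNA replicate 1 (adjusted p = 0.0407) and lost without any other (adjusted p from 0.0516 to 0.313).

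The other 5 alpha ring genes had log2 fold changes from 0.06 (PSMA5) to 0.21 (PSMA3) with MELK siRNA and from 0.04 (PSMA5) to 0.26 (PSMA3) with UBE2C siRNA, and none passed the test. With all 9 arrays these 5 genes had 0.18 (PSMA1) to 0.34 (PSMA4) with UBE2C siRNA, and PSMA5 moved to 0.25. Over the 6 genes the median log2 fold change was 0.15 with MELK siRNA and 0.21 with UBE2C siRNA, against 0.004 and -0.02 over all genes. At an unadjusted p under 0.05, 3 of the 6 differed from control with MELK siRNA and 4 with UBE2C siRNA, against 22.1% and 22.7% of all genes. A second probe of PSMA3 gave a larger change with MELK siRNA, 0.31 (SE 0.0752, adjusted p = 0.0330 over all probes), and 0.20 with UBE2C siRNA, or 0.33 with 9 arrays. PSMA8, the alpha subunit of the testis proteasome, was not detected on any array.

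The constitutive beta ring, which carries the proteolytic sites, held no gene that passed, and its level with UBE2C siRNA depended on 1 array. Its 7 genes had a median log2 fold change of 0.02 with MELK siRNA and -0.002 with UBE2C siRNA, where 3 of the 7 were positive. With UBE2C siRNA replicate 1 included, that median was 0.19 and all 7 were positive, against a median of 0.05 over all genes. PSMB5, which holds the chymotrypsin-like site that bortezomib blocks, had a log2 signal of 12.71, 12.99 and 13.00 in the controls, 12.90, 12.81 and 12.93 with MELK siRNA, and 13.12, 12.96 and 12.80 with UBE2C siRNA. The groups overlapped, and the log2 fold change was -0.02 with MELK siRNA (SE 0.0821, adjusted p = 0.922) and -0.02 with UBE2C siRNA (SE 0.0918, adjusted p = 0.926), or 0.06 with 9 arrays. PSMB6, the caspase-like subunit, had 13.32, 13.22 and 13.20 in the controls, 13.35, 13.41 and 13.24 with MELK siRNA, and 13.90, 13.28 and 13.12 with UBE2C siRNA. Its groups overlapped as well, with log2 fold changes of 0.09 (SE 0.0699) and -0.05 (SE 0.0781), the latter 0.19 with 9 arrays. PSMB7, the trypsin-like subunit, had 12.68, 12.78 and 12.58 in the controls, 12.79, 12.94 and 12.84 with MELK siRNA, and 13.31, 12.84 and 12.89 with UBE2C siRNA. All knockdown arrays were above all controls for PSMB7, by 0.18 (SE 0.0723, adjusted p = 0.155) and 0.18 (SE 0.0808, adjusted p = 0.182), and the difference did not pass. With 9 arrays the value of PSMB7 with UBE2C siRNA was 0.33. The structural beta subunits PSMB1, PSMB2, PSMB3 and PSMB4 had log2 fold changes between -0.07 and 0.10 over both comparisons, and from 0.15 (PSMB3) to 0.36 (PSMB4) with UBE2C siRNA on 9 arrays.

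The immunoproteasome subunits replace these 3 catalytic subunits in cells exposed to interferon and change which peptides are cut for antigen presentation. PSMB8, which takes the place of PSMB5, had a log2 signal of 8.67, 8.53 and 8.90 in the controls, 8.995, 9.002 and 9.13 with MELK siRNA, and 8.32, 9.17 and 8.95 with UBE2C siRNA. Apart from UBE2C siRNA replicate 1, which was the lowest of the 9 arrays, the knockdown arrays were above all controls. The log2 fold change was 0.34 (SE 0.117, adjusted p = 0.0945) with MELK siRNA and 0.36 (SE 0.131, adjusted p = 0.111) with UBE2C siRNA, neither past the threshold; without control replicate 3 both passed (adjusted p = 0.0427 and 0.0424), while the adjusted p over all alternatives ranged up to 0.964 and 0.822. With 9 arrays the value of PSMB8 with UBE2C siRNA was 0.12. The other kept probes of PSMB8 gave 0.38 (SE 0.16), 0.08 (SE 0.18) and 0.09 (SE 0.29) with MELK siRNA. With UBE2C siRNA these probes gave 0.47, 0.34 and 0.33, or 0.42, -0.19 and -0.03 with 9 arrays. PSMB10, which takes the place of PSMB7, had 10.91, 11.20 and 10.68 in the controls, 10.97, 10.97 and 11.14 with MELK siRNA, and 12.01, 11.23 and 10.86 with UBE2C siRNA, so the groups overlapped, and the log2 fold changes were 0.09 (SE 0.124) and 0.11 (SE 0.138), the latter 0.43 with 9 arrays. PSMB9, which takes the place of PSMB6, was near background: it was detected on 8 of 9 arrays, at 4.98, 5.55 and 5.46 in the controls, 5.56, 5.28 and 5.99 with MELK siRNA, and 4.67, 4.87 and 5.38 with UBE2C siRNA. Its log2 fold changes of 0.28 (SE 0.264) and -0.20 (SE 0.295) were no larger than the spread between arrays. The latter was -0.36 with 9 arrays. The other kept probe of PSMB9, detected on 5 of 9 arrays, gave 0.34 with MELK siRNA. With UBE2C siRNA that probe gave 0.29, or 0.16 with 9 arrays, so the probes of PSMB9 differed in sign there. PSMB11, the subunit of the thymus proteasome, was above background on no more than 1 array with either of its probes and was not tested.

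**Figure D2:**
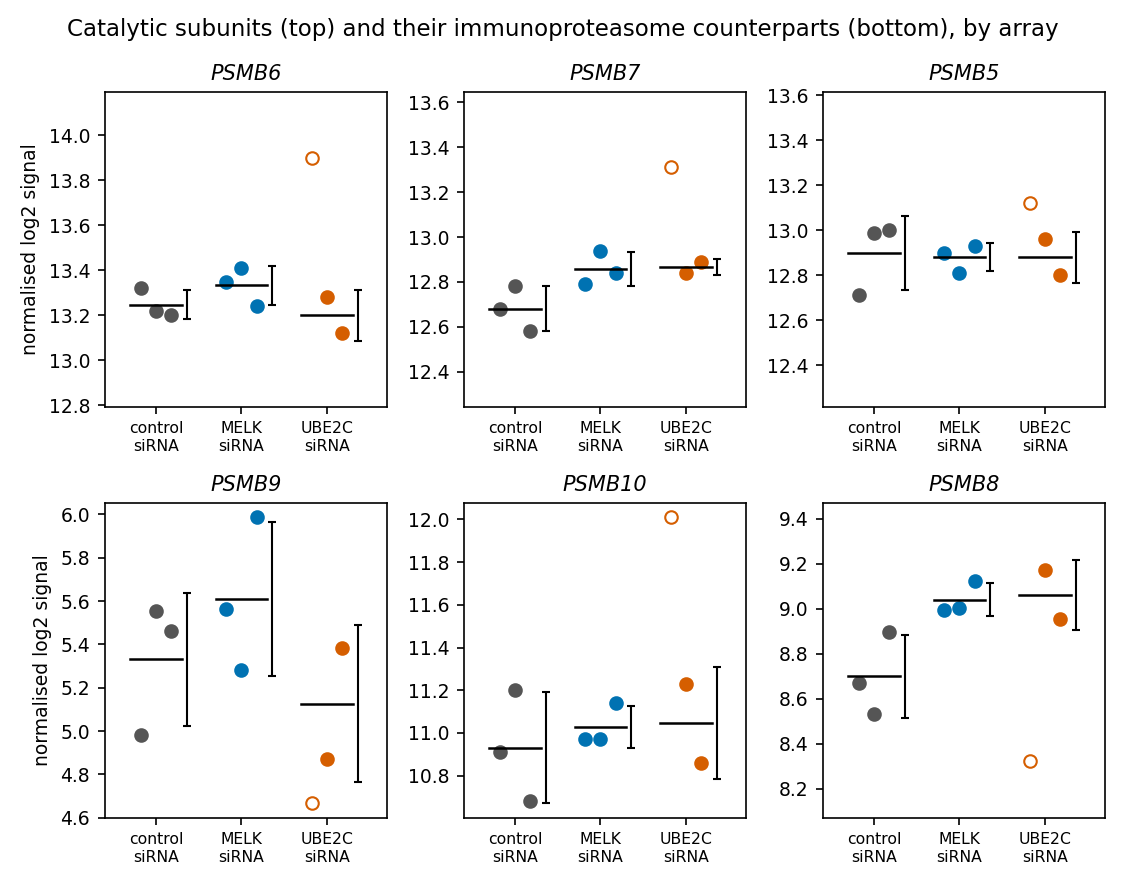
Normalised log2 signal of the 3 catalytic subunits (top row) and of the immunoproteasome subunit that replaces each (bottom row) on every array. Points are arrays, lines and bars are the mean and SD over the arrays in the fit, and the open symbol is UBE2C siRNA replicate 1, which is left out of both; the groups overlap in every panel except that of PSMB7 and, without the open symbol, that of PSMB8.

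In the base of the regulatory particle the 5 measured ATPases did not pass the test. PSMC2 had log2 fold changes of 0.16 (SE 0.0679, adjusted p = 0.170) with MELK siRNA and 0.13 (SE 0.0759, adjusted p = 0.343) with UBE2C siRNA, and the ATPases together had a median of 0.03 and 0.13. PSMC4 shows what UBE2C siRNA replicate 1 can do to a value: its log2 signal was 10.05, 9.76 and 10.43 in the controls, 9.25, 9.93 and 10.34 with MELK siRNA, and 4.28, 10.20 and 10.32 with UBE2C siRNA. All 3 of its probes were at background on that array, and the log2 fold change with UBE2C siRNA was -1.81 with 9 arrays but 0.18 (SE 0.303) with 8. A second, dimmer probe of PSMC6 gave 0.91 with MELK siRNA (SE 0.224, adjusted p = 0.0353 over all probes), where the probe in the fit gave 0.08 (SE 0.0718).

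The base subunits that are not ATPases had negative medians, -0.10 with MELK siRNA and -0.13 with UBE2C siRNA over 4 genes. PSMD1, the large scaffold that anchors ubiquitin receptors, had a log2 signal of 11.13, 11.26 and 11.24 in the controls, 10.93, 10.85 and 10.70 with MELK siRNA, and 10.29, 10.96 and 10.99 with UBE2C siRNA. Every knockdown array was below every control. The log2 fold change was -0.39 (SE 0.0846, adjusted p = 0.0149) with MELK siRNA, which passed, and -0.24 (SE 0.0946, adjusted p = 0.143) with UBE2C siRNA, which did not. With 9 arrays the latter was -0.47 (adjusted p = 0.444 with an untrended prior). The call was lost without MELK siRNA replicate 2 (adjusted p = 0.0754) or 3 (adjusted p = 0.0735) and under median scaling, where the change was -0.24 (adjusted p = 0.308). PSMD2, the companion scaffold, had -0.12 (SE 0.0915) and -0.10 (SE 0.102), neither past the threshold.

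PSMD4 and ADRM1 are intrinsic ubiquitin receptors of the base. PSMD4 had a log2 signal of 11.71, 11.73 and 11.75 in the controls, 12.07, 11.93 and 11.89 with MELK siRNA, and 11.85, 11.72 and 11.67 with UBE2C siRNA. The MELK siRNA arrays were above all others, by 0.23 over control (SE 0.0755, adjusted p = 0.0783), and the UBE2C siRNA arrays lay on both sides of the controls, replicate 1 above them all and replicate 3 below them all, at -0.03 (SE 0.0844), or 0.02 with 9 arrays. Its other 2 probes gave 0.14 and -0.06 with MELK siRNA. ADRM1 had 12.60, 12.36 and 12.39 in the controls, 12.42, 12.38 and 12.31 with MELK siRNA, and 12.17, 12.29 and 12.30 with UBE2C siRNA. Its UBE2C siRNA arrays were below all controls, by -0.15 (SE 0.0855, adjusted p = 0.302), and its MELK siRNA arrays overlapped them at -0.08 (SE 0.0765).

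The lid held the remaining genes that passed, apart from a chaperone of the base. PSMD14, the metalloprotease that removes ubiquitin as the substrate is drawn in, had a log2 signal of 11.73, 11.83 and 11.77 in the controls, 12.09, 12.12 and 11.93 with MELK siRNA, and 12.05, 12.12 and 12.27 with UBE2C siRNA. All 6 knockdown arrays were above all controls, UBE2C siRNA replicate 1 among them. The log2 fold change was 0.42 (SE 0.0878, adjusted p = 0.0180) with UBE2C siRNA, and 0.27 (SE 0.0785, adjusted p = 0.0515) with MELK siRNA, just short of the threshold. The call with UBE2C siRNA was lost without UBE2C siRNA replicate 2 (adjusted p = 0.193) or 3 (adjusted p = 0.194), where 1 array is left in the group.

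PSMD6, a structural subunit of the lid, had a log2 signal of 11.04, 11.08 and 10.86 in the controls, 11.32, 11.38 and 11.27 with MELK siRNA, and 11.52, 11.26 and 11.39 with UBE2C siRNA, again with no overlap between knockdown and control arrays. PSMD6 rose by 0.33 (SE 0.0845, adjusted p = 0.0342) with MELK siRNA and had 0.33 (SE 0.0945, adjusted p = 0.0541) with UBE2C siRNA. The second probe of PSMD6 did not follow with MELK siRNA. It read 10.60, 10.53 and 10.75 in the controls and 10.17, 10.69 and 10.86 with MELK siRNA, which gave a difference of -0.05 (SE 0.143). It read 7.73 on UBE2C siRNA replicate 1, below all other arrays, and the fit without that array gave 0.29 (SE 0.160) with UBE2C siRNA, where the fit with it gave -0.77. With the mean of both probes the change of PSMD6 with MELK siRNA was 0.14 (adjusted p = 0.402). The call was kept without control replicate 2 (adjusted p = 0.0385) and lost without any of the other 7 arrays (adjusted p from 0.0504 to 0.155). The other 4 lid genes, PSMD3, PSMD8, PSMD11 and PSMD12, had log2 fold changes from -0.12 to 0.06 with MELK siRNA and from -0.19 to 0.39 with UBE2C siRNA, and none passed. With 9 arrays PSMD3 moved from -0.19 to -0.66 with UBE2C siRNA, PSMD11 from 0.39 to -0.08 and PSMD8 from -0.11 to 0.09.

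Before a proteasome works, dedicated chaperones assemble it. PSMD5, PSMD9 and PSMD10 each hold ATPases of the base, and all 3 were above control in the mean with either siRNA, with medians of 0.22 and 0.20. With 9 arrays the median with UBE2C siRNA was 0.40, and PSMD5 moved from 0.16 to 0.49 and PSMD9 from 0.20 to 0.40. PSMD10, also known as gankyrin, had a log2 signal of 11.65, 11.68 and 11.76 in the controls, 12.01, 11.92 and 11.98 with MELK siRNA, and 12.05, 12.03 and 11.87 with UBE2C siRNA. All knockdown arrays were above all controls. It rose by 0.27 (SE 0.0760, adjusted p = 0.0439) with MELK siRNA and had a difference of 0.25 (SE 0.0850, adjusted p = 0.0936) with UBE2C siRNA. The other kept probes of PSMD10 gave 0.33 (SE 0.141) and 0.07 (SE 0.274) with MELK siRNA and 0.48 (SE 0.158) and 0.24 (SE 0.306) with UBE2C siRNA, the same direction with wider errors. With UBE2C siRNA replicate 1 included, where these probes were at their lowest, they gave -0.65 and -1.15. The call of PSMD10 was kept without control replicate 3 (adjusted p = 0.0406), lost without any of the other 7 arrays (adjusted p from 0.0639 to 0.116), and lost with the mean of its probes (0.23, adjusted p = 0.285).

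The chaperones of the 20S core were above control in the mean with UBE2C siRNA in 5 of 5 genes and with MELK siRNA in 4 of 5, and none passed. POMP, which helps the beta ring close and is then the first protein that the new core degrades, had a log2 signal of 13.00, 12.83 and 12.67 in the controls, 13.08, 13.04 and 12.94 with MELK siRNA, and 13.63, 13.11 and 12.97 with UBE2C siRNA. The groups overlapped, at 0.19 (SE 0.0821, adjusted p = 0.186) and 0.21 (SE 0.0918, adjusted p = 0.182), the latter 0.41 with 9 arrays. PSMG1, which guides the alpha ring together with PSMG2, had 0.20 (SE 0.0744, adjusted p = 0.126) with MELK siRNA and 0.15 (SE 0.0832, adjusted p = 0.292) with UBE2C siRNA, the latter 0.08 with 9 arrays. Its second probe passed with UBE2C siRNA on 8 arrays, at 0.53 (SE 0.111, adjusted p = 0.0231 over all probes), but read 9.30 on the left-out array and turned to -0.15 with it. PSMG2, PSMG3 and PSMG4 had log2 fold changes from -0.06 to 0.13 with MELK siRNA and from 0.02 to 0.15 with UBE2C siRNA. With 9 arrays these were 0.01 for PSMG2, 0.51 for PSMG3 and -0.15 for PSMG4, so that 4 of the 5 genes were positive.

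The activators that can cap the core in place of the 19S particle were near control. PSME1 and PSME2, the interferon-induced pair, PSME3, the nuclear form, and PSME4 had log2 fold changes from 0.02 to 0.08 with MELK siRNA and from -0.13 to 0.05 with UBE2C siRNA. With 9 arrays the values with UBE2C siRNA were 0.21, -0.09, 0.003 and 0.13 for PSME1 to PSME4. PSMF1, known as an inhibitor of the core, was not detected on any array by the probe listed for it. Of the genes matched by symbol alone, PSMC3IP, a recombination factor, had 0.26 (SE 0.173) and 0.28 (SE 0.193), PSME3IP1 had -0.35 (SE 0.177) and -0.12 (SE 0.198), and PSMG3-AS1 had 0.14 (SE 0.286) and -0.20 (SE 0.320), none past the threshold. With 9 arrays their values with UBE2C siRNA were -0.12, -0.45 and 0.21. PSMD6-AS2 was above background on 1 array and was not tested.

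**Figure D3:**
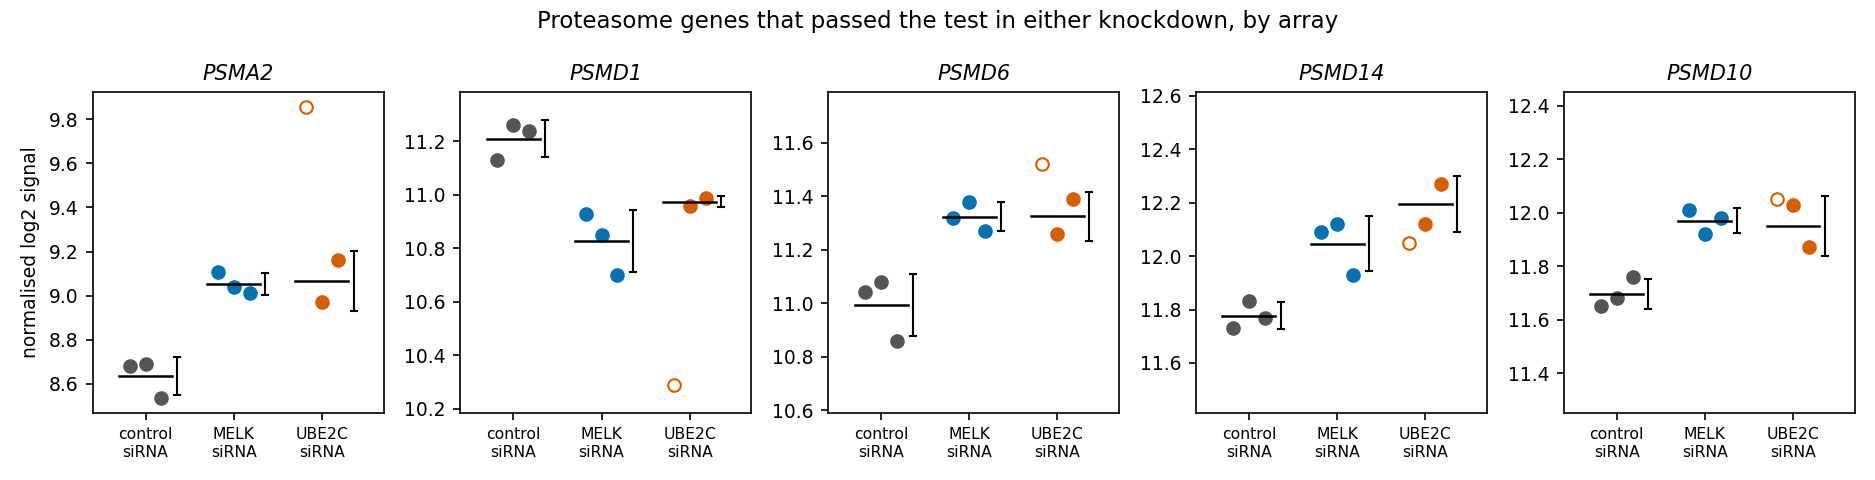
Normalised log2 signal on every array of the 5 proteasome genes that passed the test in either knockdown. Points are arrays, lines and bars are the mean and SD over the arrays in the fit, and the open symbol is UBE2C siRNA replicate 1, which is left out of both; each panel has its own scale, and in each the knockdown arrays lie wholly above the controls, or wholly below them for PSMD1.

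The promoters of these 5 genes are shown because proteasome genes are known for shared elements near their start sites. Each window runs from 250 bases before the start of the gene to 50 bases after it, read along the gene's own strand, from RefSeq on GRCh38.p14. Capitals mark matches, on either strand, to an antioxidant response element core (TGACNNNGC or TGAGNNNGC), a CCAAT box (CCAAT) or an ETS site (CCGGAAG).
PSMA2 promoter (chr7:42932125-42932424, minus strand): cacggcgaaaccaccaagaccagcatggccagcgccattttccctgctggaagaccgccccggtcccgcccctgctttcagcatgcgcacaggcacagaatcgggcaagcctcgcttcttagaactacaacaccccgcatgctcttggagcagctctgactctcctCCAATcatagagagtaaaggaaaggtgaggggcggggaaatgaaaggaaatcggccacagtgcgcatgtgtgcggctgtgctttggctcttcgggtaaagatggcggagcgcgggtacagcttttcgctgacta
PSMD6 promoter (chr3:64023445-64023744, minus strand): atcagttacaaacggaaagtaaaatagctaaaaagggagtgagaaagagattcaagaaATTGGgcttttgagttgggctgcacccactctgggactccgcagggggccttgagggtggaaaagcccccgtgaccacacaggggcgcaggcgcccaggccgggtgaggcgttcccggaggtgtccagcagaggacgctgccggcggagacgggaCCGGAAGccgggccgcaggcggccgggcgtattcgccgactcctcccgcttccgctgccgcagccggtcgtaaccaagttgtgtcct
PSMD14 promoter (chr2:161308175-161308474, plus strand): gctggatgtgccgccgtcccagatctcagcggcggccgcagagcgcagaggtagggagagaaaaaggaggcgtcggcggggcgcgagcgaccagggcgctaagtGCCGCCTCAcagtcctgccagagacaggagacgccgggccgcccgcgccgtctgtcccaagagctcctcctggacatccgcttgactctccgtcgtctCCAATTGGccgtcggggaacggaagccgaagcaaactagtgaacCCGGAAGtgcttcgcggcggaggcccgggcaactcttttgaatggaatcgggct
PSMD10 promoter (chrX:108091493-108091792, minus strand): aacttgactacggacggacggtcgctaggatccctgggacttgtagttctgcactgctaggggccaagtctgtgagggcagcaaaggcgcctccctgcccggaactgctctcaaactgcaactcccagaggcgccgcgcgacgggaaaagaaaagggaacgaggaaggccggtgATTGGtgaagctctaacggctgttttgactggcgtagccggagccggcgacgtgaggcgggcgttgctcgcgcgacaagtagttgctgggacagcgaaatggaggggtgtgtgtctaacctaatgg
PSMD1 promoter (chr2:231056617-231056916, plus strand): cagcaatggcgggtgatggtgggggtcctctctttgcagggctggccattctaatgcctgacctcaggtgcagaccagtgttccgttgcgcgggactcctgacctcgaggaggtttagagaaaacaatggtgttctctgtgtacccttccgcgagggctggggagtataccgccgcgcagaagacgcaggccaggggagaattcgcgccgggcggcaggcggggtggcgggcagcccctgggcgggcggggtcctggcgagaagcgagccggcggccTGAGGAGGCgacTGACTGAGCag

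PSMD1, which fell, had 2 matches to the antioxidant response element core, both just after the start of the gene, at positions 278 and 290 of the window, and no CCAAT box. PSMA2, PSMD6 and PSMD10, which rose with MELK siRNA, had no such core and 1 CCAAT box each, and PSMD6 an ETS site at position 214. PSMD14 had 1 core match on the minus strand at position 105, a pair of CCAAT boxes on opposite strands that overlap at positions 203 to 210, and an ETS site at position 247. RefSeq promoters were found for 45 of the 50 genes, 41 of them proteasome genes proper. The core was in 48.8% of these 41 windows, against 32.5% of the windows of tested genes and 29.4% of all 27305 windows. The ETS site was in 29.3%, against 19.2% and 10.7%, and the CCAAT box in 43.9%, against 37.3% and 35.7%. A match is a description of these letters, and its bearing on the changes was not tested. The start of PSMA2 lies 202 bases from that of MRPL32, a mitochondrial ribosomal protein gene on the other strand, and MRPL32 had log2 fold changes of 0.27 (SE 0.124, adjusted p = 0.222) and 0.28 (SE 0.139, adjusted p = 0.241), the latter 0.16 with 9 arrays. The start of PSMD10 lies 236 bases from that of the autophagy gene ATG4A, which had 0.27 (SE 0.108, adjusted p = 0.151) and 0.23 (SE 0.121, adjusted p = 0.275), the latter 0.43 with 9 arrays.

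Set directly against each other, the knockdowns did not differ in any proteasome gene at the threshold. No proteasome gene passed in limma with 8 arrays or with 9, where 0.0175% and 0.00875% of all genes passed. At an unadjusted p under 0.05, 1 of the 46 differed, against 5.08% of all genes, and with 9 arrays also 1, against 2.93%. The gene with 8 arrays was PSMD4, which was higher with MELK siRNA than with UBE2C siRNA by 0.27 (SE 0.0844, adjusted p = 0.937) in limma on 8 arrays and by 0.22 with 9 arrays, where a two-sided exact permutation test gave p = 0.1. The other kept probes of PSMD4 gave 0.13 and -0.01 on 8 arrays, or 0.07 and 0.21 with 9. The gene with 9 arrays was PSMB9, which was near background, at 0.64, or 0.18 with its other kept probe. The difference between MELK and UBE2C siRNA was -0.01 (SE 0.118) for PSMA2, -0.004 (SE 0.0945) for PSMD6 and 0.02 (SE 0.0850) for PSMD10, or -0.28, -0.07 and -0.01 with 9 arrays. It was -0.15 for PSMD1 (SE 0.0946) and -0.15 for PSMD14 (SE 0.0878), so that a call in one knockdown and not in the other is not shown to be a difference between them. With 9 arrays these were 0.08 and -0.10. The median over the 46 genes was -0.002, against 0.03 over all genes, and 23 were positive, against 56.5% of all genes. The arrays did not overlap for 6 genes that were higher with MELK siRNA and 4 that were lower, against 14.2% and 9.22% of all genes (23.5% in all).

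The left-out array carries the widest spread for these genes. Of the 46 proteasome genes, 26 had their highest and 14 their lowest value of the 9 arrays on UBE2C siRNA replicate 1. On that array 8 of the 46 lay more than 1 log2 unit from their mean over the other arrays, where 27.6% of all genes did, and on every other array none of the 46 did. The probes in the fit lay above their 8-array mean there by a median of 0.41 for the alpha ring and 0.60 for the beta ring, where the median of all genes was 0.31, and the lid had -0.01. Second probes of alpha ring genes did not all share that direction. On that array the second probe of PSMA1 read 5.19, against 9.55 to 10.21 on the others, and that of PSMA4 read 9.53, against 10.27 to 10.95. The second probe of PSMA6 read 10.10 there, against 12.32 to 12.69, and that of PSMA3 read 12.44, against 11.82 to 12.25. The 24 second probes of proteasome genes departed from the probe in the fit with an SD of 1.77 there and of 0.169 to 0.370 on the other arrays, in log2 units. With all 9 arrays the median log2 fold change of the proteasome genes with UBE2C siRNA was 0.15, against 0.05 over all genes. Of the 46 genes 34 were positive, against 55.7% of all genes.

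**Figure D4:**
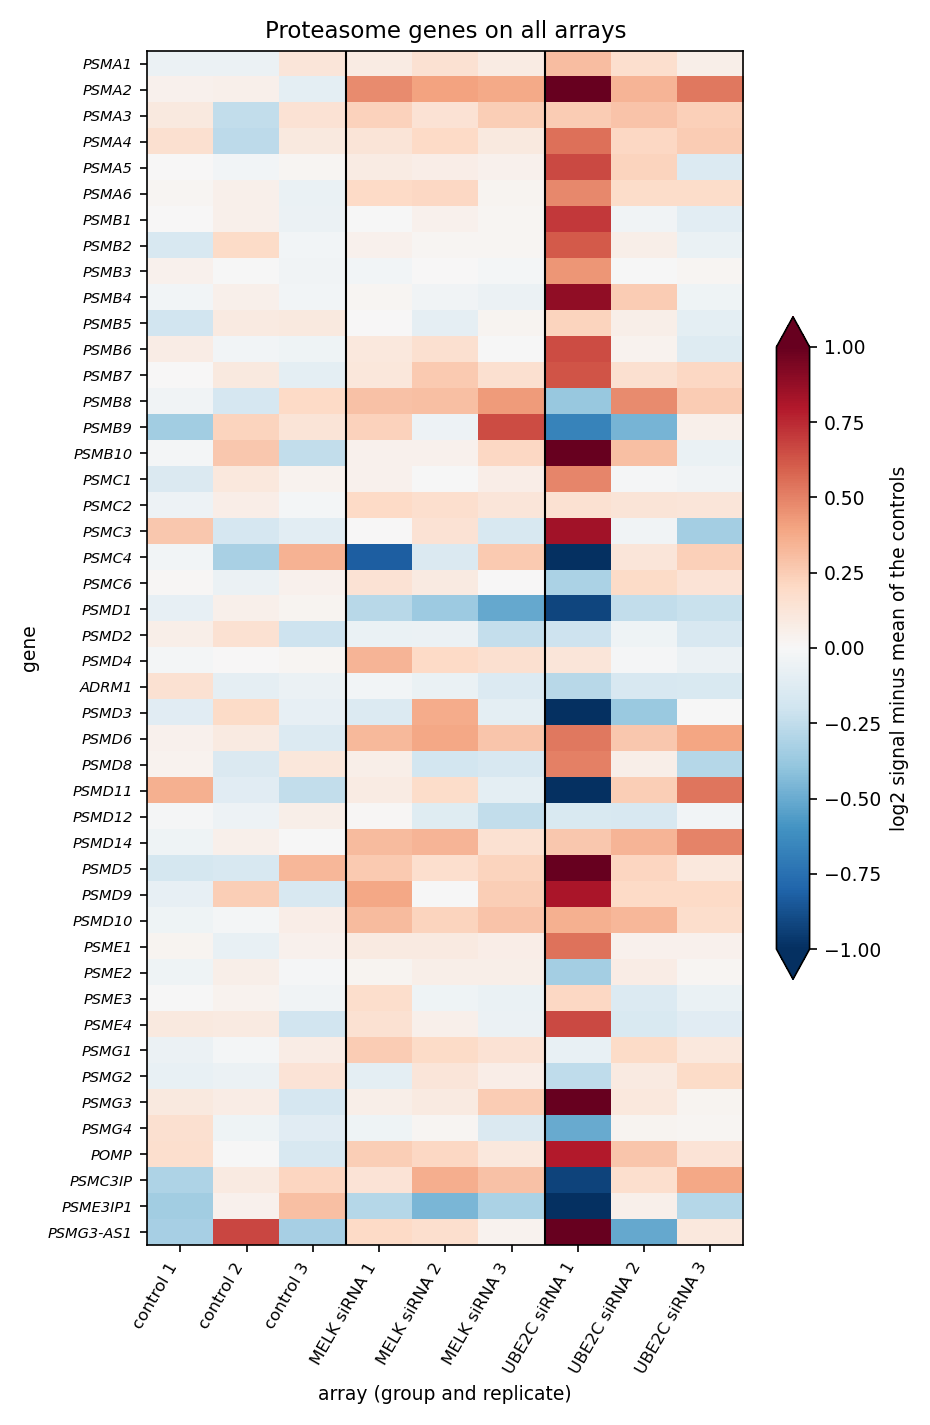
Log2 signal of the 46 tested proteasome genes on each of the 9 arrays, minus the mean of the 3 control arrays of the same gene, with colours ending at 1 and -1. Columns are arrays grouped by siRNA and rows are genes in the order of their place in the complex; the column of UBE2C siRNA replicate 1 stands out, with PSMC4 past the end of the scale at 4.28 against 9.76 to 10.43 in the controls.

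Genes that work with the proteasome were described by lists of 8 kinds. Among 18 measured proteasome-associated proteins and ubiquitin shuttles, 1 passed in each comparison, near the 5.51% and 4.46% of all genes, the thioredoxin-like protein TXNL1, which binds the 19S particle. The log2 signal of TXNL1 was 10.01, 9.64 and 9.67 in the controls, 10.17, 10.39 and 10.29 with MELK siRNA, and 10.64, 10.19 and 10.43 with UBE2C siRNA, so all knockdown arrays were above all controls. TXNL1 rose by 0.51 (SE 0.111, adjusted p = 0.0143) with MELK siRNA and by 0.54 (SE 0.124, adjusted p = 0.0248) with UBE2C siRNA. The call with MELK siRNA was lost without control replicate 2 (adjusted p = 0.0563) or MELK siRNA replicate 2 (adjusted p = 0.0988) or 3 (adjusted p = 0.0549), and the call with UBE2C siRNA without control replicate 2 (adjusted p = 0.0758) or UBE2C siRNA replicate 2 (adjusted p = 0.193) or 3 (adjusted p = 0.237). The list had medians of 0.04 and 0.07.

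Among 16 measured regulators of proteasome transcription, NFE2L1 fell with MELK siRNA and none passed with UBE2C siRNA, where limma found 4 at an unadjusted p under 0.05, near the 22.7% of all genes. The 1 call of 16 with MELK siRNA is likewise near the 5.51% of all genes. The log2 signal of NFE2L1 was 9.57, 9.29 and 9.48 in the controls, 9.23, 9.03 and 8.80 with MELK siRNA, and 8.53, 8.97 and 9.05 with UBE2C siRNA. Every knockdown array was below every control. The log2 fold change was -0.43 (SE 0.119, adjusted p = 0.0458) with MELK siRNA and -0.44 (SE 0.134, adjusted p = 0.0669) with UBE2C siRNA. The call was kept without control replicate 2 (adjusted p = 0.0431) or MELK siRNA replicate 1 (adjusted p = 0.0162), and lost without any of the other 6 arrays (adjusted p from 0.0720 to 0.177). The list had medians of -0.05 and -0.07, the latter -0.205 with 9 arrays. Its relative NFE2L2, the factor of the oxidative stress response, had log2 fold changes of -0.07 and 0.01, the latter -0.22 with 9 arrays.

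Of the chaperonin and prefoldin genes, which build and feed another large ring complex, 2 of 16 passed in each comparison, where 5.51% and 4.46% of all genes did. The medians were 0.21 with MELK siRNA and 0.09 with UBE2C siRNA, against 0.004 and -0.02 over all genes, and 0.39 with UBE2C siRNA on 9 arrays, against 0.05. PFDN4, a prefoldin subunit, had a log2 signal of 5.41, 5.73 and 5.82 in the controls, 6.58, 6.32 and 6.50 with MELK siRNA, and 7.80, 6.45 and 6.41 with UBE2C siRNA. PFDN5, another subunit, had 13.24, 13.23 and 13.12 in the controls, 13.65, 13.47 and 13.49 with MELK siRNA, and 13.97, 13.46 and 13.46 with UBE2C siRNA. TCP1, a subunit of the chaperonin, had 11.64, 11.39 and 11.44 in the controls, 11.83, 11.71 and 11.71 with MELK siRNA, and 11.89, 11.88 and 11.86 with UBE2C siRNA. For all 3 genes every knockdown array was above every control. PFDN4 rose by 0.81 with MELK siRNA (SE 0.189, adjusted p = 0.0209) and by 0.77 with UBE2C siRNA (SE 0.211, adjusted p = 0.0467), the latter 1.23 with 9 arrays. The control signals of PFDN4 lay in the dim range of PSMB9, which was near background. Over the alternatives the value of PFDN4 ranged from 0.353 to 0.896 with MELK siRNA and from 0.332 to 1.23 with UBE2C siRNA. PFDN5 rose by 0.34 with MELK siRNA (SE 0.0674, adjusted p = 0.01), and TCP1 rose by 0.38 with UBE2C siRNA (SE 0.0922, adjusted p = 0.0324). The PFDN5 call was kept without any single array of the 8. The PFDN4 call with MELK siRNA was lost without control replicate 1 (adjusted p = 0.0666) or MELK siRNA replicate 2 (adjusted p = 0.0693) or 3 (adjusted p = 0.0707). The PFDN4 call with UBE2C siRNA was kept without control replicate 3 (adjusted p = 0.0335) or MELK siRNA replicate 1 (adjusted p = 0.0438) and lost without any other array (adjusted p from 0.0530 to 0.280). The TCP1 call was lost without control replicate 2 (adjusted p = 0.0926), MELK siRNA replicate 2 (adjusted p = 0.0565) or UBE2C siRNA replicate 2 (adjusted p = 0.257) or 3 (adjusted p = 0.18).

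Antigen processing genes other than the immunoproteasome had negative medians, -0.08 and -0.15 over 14 genes. The aminopeptidase ERAP2 had a log2 signal of 12.33, 12.18 and 12.17 in the controls, 11.80, 12.06 and 11.66 with MELK siRNA, and 11.81, 12.23 and 12.40 with UBE2C siRNA. Its MELK siRNA arrays were below all controls, and its UBE2C siRNA arrays lay on both sides of them. ERAP2 fell by 0.39 on the log2 scale with MELK siRNA (SE 0.0950, adjusted p = 0.0270), a call lost without control replicate 1 (adjusted p = 0.0879) or MELK siRNA replicate 3 (adjusted p = 0.113), and had 0.09 (SE 0.106) with UBE2C siRNA, or -0.08 with 9 arrays. With UBE2C siRNA no gene of the list passed in limma and 1 of 14 had an unadjusted p under 0.05. In the lists of ubiquitin genes (6 measured), p97 and its cofactors (19), the COP9 signalosome and eIF3 (22) and heat shock genes (16), limma called 0 genes in either comparison. At an unadjusted p under 0.05 these lists held 1, 4, 4 and 4 genes with MELK siRNA and 4, 3, 6 and 3 with UBE2C siRNA, where 22.1% and 22.7% of all genes were under it. Heat shock genes, which are known to rise when the proteasome is inhibited, had medians of -0.05 and -0.01, the latter -0.11 with 9 arrays.

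**Figure D5:**
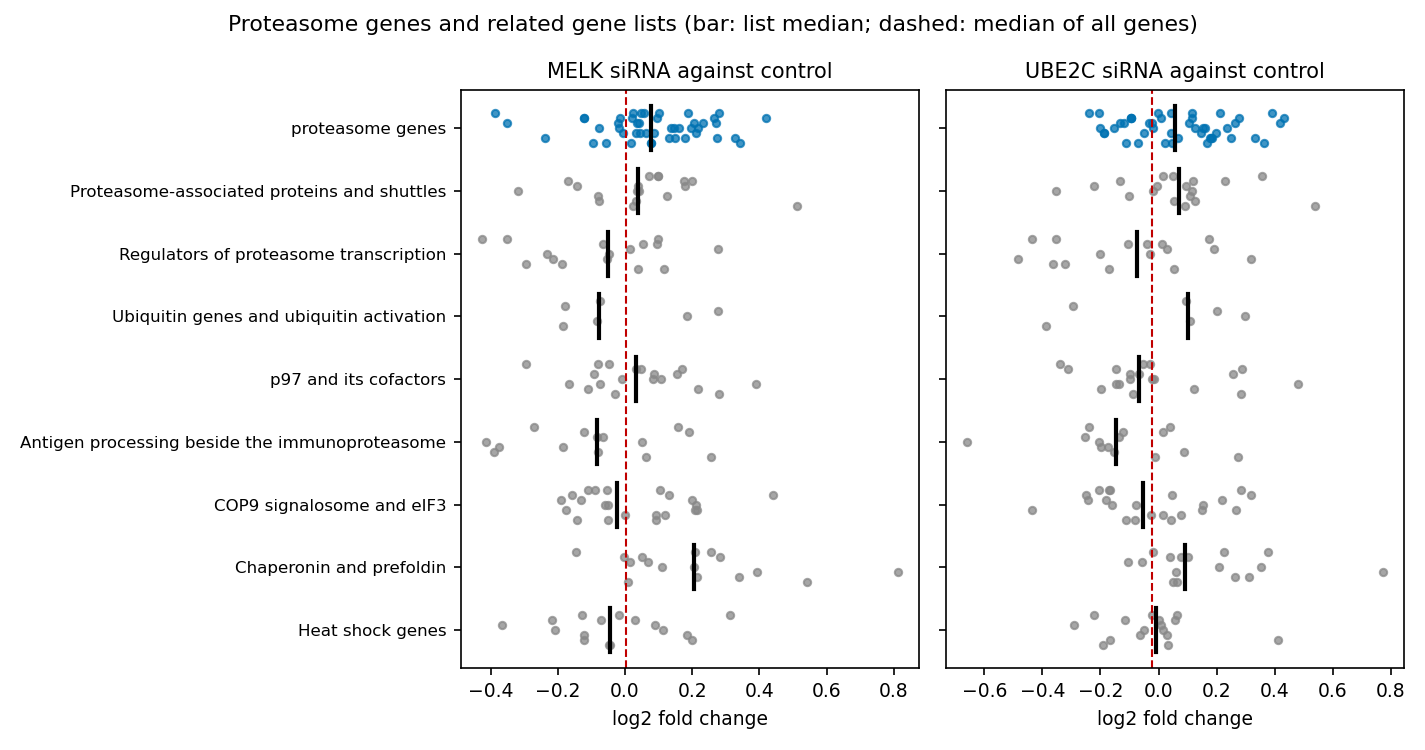
Log2 fold changes of the 46 proteasome genes and of the genes of 8 related lists with MELK siRNA (left) and UBE2C siRNA (right) against control in the 8-array fit. Points are genes, black bars are list medians and the dashed line is the median of all 11428 genes; the chaperonin and prefoldin list has the highest median in the left panel, 0.21, and the proteasome genes have 0.08 there.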

How the data were processed

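The authors deposited raw bead intensity values for every probe, with no background subtracted and no scaling between arrays, as the values show. A detection p-value stands beside every intensity, per the file headers; the sources used here do not say how it was computed. The authors' own log2 values, used as an alternative, have nearly the same median on every array, 6.779 or 6.780. Of tools, lumi is named in the submitters' processing notes, with no version.

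Signals were background-corrected, quantile-normalised and log2-transformed with neqc in limma 3.58.1 (R 4.3.3), with an offset of 16 that shrinks changes of dim probes. A probe was kept when its detection p was under 0.01 and its signal was above background on at least 3 of 9 arrays, because the detection p is small on both sides of background. Each gene was represented by its kept probe with the highest mean. The named-gene rule gives values on every array for proteasome genes called in any comparison and for PSMB5 to PSMB10, PSMD4, ADRM1 and POMP, and called genes of the other lists. The fit left out UBE2C siRNA replicate 1 and used eBayes with a trended, robust prior. Members, lists and this fit were chosen with earlier results of these data known. The fit did not pair samples by replicate number, and 0 deposited columns were left unused. The fit was tested on simulated data. Precision is bounded by the number of arrays per group. No scan or slide information was used, so batches were not tested. No array repeated another: at most 14 signals were identical between arrays of a group. Alternatives included other normalisations, filters, probe rules, priors and each array left out.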

Additional observations from a re-analysis of the deposited data

How the results depend on the processing

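No gene that passed the test with the probe in the fit turned its direction under any of the 22 alternatives, whereas the second probe of PSMG1 turned with 9 arrays, and most calls depended on the fit. The count of proteasome genes that passed was 0 in both comparisons with all 9 arrays (trended or untrended prior), with 8 arrays and an untrended prior, and with array weights. Median scaling gave 1 for MELK siRNA and 0 for UBE2C siRNA. No detection filter gave 1 and 1, as did only the 2 groups compared. Without single arrays the counts ranged from 0 to 3 for both. Cyclic loess gave 5 and 3, and the authors' log2 values gave 4 and 2. The direct comparison of the knockdowns gave 0 under every alternative. A background from a one-sided detection p, an alternative added after seeing the data, gave 4 and 2. Over all genes the alternatives called 0 to 736 genes for MELK siRNA and 1 to 760 for UBE2C siRNA.

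Deviations of control and MELK siRNA arrays with the same replicate number correlated at 0.03, -0.07 and 0.18. Those of arrays with different numbers correlated at -0.25 to 0.23. The UBE2C siRNA arrays were not examined in this way, so these values do not settle whether replicate numbers pair the samples. With a replicate block 4 proteasome genes passed for MELK siRNA, 1 for UBE2C siRNA, where PSMA2 had an adjusted p of 0.0597 (limma), and 0 in the direct comparison.

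The median log2 fold change with MELK siRNA was 0.235 under median scaling, which also moved the median of all genes to 0.085, and 0.0583 to 0.0945 without single arrays. With UBE2C siRNA it was 0.150 with 9 arrays, 0.104 with array weights, 0.150 under median scaling, 0.116 with every probe tested, and 0.0376 to 0.0993 without single arrays. In the direct comparison it was -0.0763 with 9 arrays, 0.0708 under median scaling, and -0.0173 to 0.0363 without single arrays. With 9 arrays the median of all genes in the direct comparison moved by -0.10. The causes of these shifts were not tested. Probes near background, such as those of PSMB9, limit what can be seen of their genes.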

Other observations

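Among proteasome genes with more than 1 kept probe, 18 of 24 second probes had the same sign as the probe in the fit with MELK siRNA and 18 of 24 with UBE2C siRNA, and the median difference between the log2 fold changes of the probes was 0.11 and 0.07 in size. Second probes that passed where the probe in the fit did not were those of PSMA3 and PSMC6 with MELK siRNA and of PSMG1 with UBE2C siRNA, the last of which turned from 0.53 to -0.15 with all 9 arrays, and they were singled out after their values were seen.

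Other proteasome genes also start close to a gene on the opposite strand. PSME4 starts 120 bases from ACYP2, which had log2 fold changes of 0.40 (SE 0.132, adjusted p = 0.0805 by limma) and 0.23, the latter 0.49 with 9 arrays, where PSME4 had 0.04 and -0.13, the latter 0.13 with 9 arrays. PSME2 starts 265 bases from RNF31, a subunit of the linear ubiquitin ligase, which had -0.30 (SE 0.128, adjusted p = 0.179 by limma) and -0.37 (SE 0.143, adjusted p = 0.131 by limma), where PSME2 had 0.05 and 0.04, the latter -0.09 with 9 arrays. PSMB9 starts 488 bases from the peptide transporter gene TAP1, which had 0.16 and 0.04, the latter 0.36 with 9 arrays. None of these neighbours passed the test in either comparison.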
